A study of Mus musculus with 4 samples.

Results

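*Spp1* and *Tnf* are 2 of the 328 genes of a mouse Xenium panel, an in situ assay that reads single transcripts by imaging and places each in a segmented cell. They were taken by name, and both were counted in every cell of 17 tissue sections on 4 slides, where a decoded transcript needed a quality score of 20 or more. In the mouse genome build GRCm38.p6, *Spp1* lies on chromosome 5 at 104435111–104441053, and *Tnf* lies on chromosome 17 at 35199367–35202007. Levels are given as CPM, the transcripts of the gene scaled to 1e+06 panel transcripts of the same section or cell kind. The probes of different genes detect with different efficiency, so levels are compared between sections, cell kinds and places and never between the genes.

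*Spp1* encodes osteopontin, a secreted phosphoprotein that binds integrins and CD44 and acts on cell adhesion and migration. It is made by bone cells, by some epithelia and by activated macrophages, and it is abundant in healing wounds. *Tnf* encodes tumour necrosis factor, a cytokine made early in inflammation by macrophages, neutrophils, lymphocytes and keratinocytes, which induces chemokines and adhesion molecules through its receptors.

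The study asked how the transcription factor PITX1, which is present in oral epithelium, changes skin and its wounds. Mice carried TRE-Pitx1, a *Pitx1* transgene behind a tetracycline-responsive promoter, together with Krt5-rtTA, an activator driven in basal keratinocytes. PITX1+ mice ate doxycycline chow, and Control littermates ate normal chow. The labels give the slides as dorsal skin of males, dorsal skin of females, wounded male skin on postoperative day 4 and buccal mucosa of Control, Vehicle-treated mice.

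Each skin slide holds Control and PITX1+ tissue, which the labels enter as a genotype, with Vehicle and Doxycycline as treatments, and no section has a label of its own. The condition of a section was taken from its place on the slide, with the first section of a slide of 3, or the first 2 of a slide of 4, assigned to Control. The labels do not give this assignment, and every comparison of Control with PITX1+ sections rests on it. This gave 3 Control sections (1 and 2 female, 3 male), 4 PITX1+ sections (1 and 2 female, 3 and 4 male), 1 Control wound, 2 PITX1+ wounds and 7 buccal sections. The legends count the 4 PITX1+ sections as mice, and do not say so of the Control, wound or buccal sections, where the spread behind the p-values may be partly technical. The paper describes the skin as adult, and an exact age is not given in the sources used here.

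The sections held 136365 to 5581930 transcripts in cells. The 3 Control sections were shallower than the 4 PITX1+ sections, with 474847 to 749248 against 2832562 to 5581930 transcripts. *Pitx1*, the induced gene, was at 722 and 436 CPM in the male PITX1+ sections 3 and 4 against 12.6 CPM in male Control section 3. On the female slide it was at 53.6 and 63.2 CPM in PITX1+ sections 1 and 2 against 74.7 and 54.1 CPM in Control sections 1 and 2, so there the induced gene did not bear out the assignment. The same PITX1+ sections held 183 and 56 neutrophil-like cells against 0 and 0 in the Control sections, and 14.2% and 13.7% of their cells were macrophage-like against 8.13% and 3.61%. It was at 339 and 135 CPM in the PITX1+ wounds and at 62.9 CPM in the Control wound. Cells with at least 10 transcripts were clustered without *Spp1*, *Tnf* and *Pitx1* and named after markers, and a name such as macrophage-like means only that at least 3 of those markers were enriched in the cluster. Of the macrophage-like clusters 1 had as many neutrophil markers as macrophage markers among its 10 leading genes (*Cxcr2* and *Mmp9* beside *Ms4a7* and *Ctss*), and of the fibroblast-like clusters 1 had as many muscle or pericyte markers as its own. Without the former, no call for macrophage-like cells changed. Buccal section 3 held 0 keratinocyte-like cells.

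Both genes were rare outside the wounds. The 20 negative control probes, which match no mouse transcript, set the background of the assay. On the female slide, where the mean per probe was highest, they gave a mean of 317 and a maximum of 1314 transcripts per probe, against 2952 *Spp1* and 2277 *Tnf* transcripts in cells. On the male unwounded slide the mean was 69.8 and the maximum 593, against 917 *Spp1* transcripts, 183 of them in cells outside the sections, and 963 *Tnf* transcripts. In male Control section 3 the 17 *Spp1* transcripts were close to the mean of 15.25 per negative control probe in the same section. On the wounded slide the mean was 244 and the maximum 3643, against 75379 *Spp1* and 10702 *Tnf* transcripts. On the buccal slide the mean was 24.2 and the maximum 109, against 502 *Spp1* and 580 *Tnf* transcripts. There 42.3% of the *Spp1* transcripts in cells reached the quality score of 20, against 70.3% to 81.4% on the skin slides.

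Osteopontin transcripts were at least an order of magnitude more frequent in every wound than in every section of intact skin. *Spp1* was at 6544 CPM in the Control wound (10619 transcripts) and at 3765 and 9612 CPM in PITX1+ wounds 1 and 2 (12562 and 52198 transcripts). In unwounded PITX1+ sections 1 to 4 it was at 294, 311, 124 and 128 CPM. In Control sections 1 to 3 it was at 199, 116 and 35.8 CPM, where the last value rests on 17 transcripts (95% exact Poisson interval 20.9 to 57.3 CPM, counting error only). The wounds did not overlap any unwounded section, whereas PITX1+ sections 3 and 4 lay within the range of the Control sections.

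*Tnf* followed the same split between wounds and intact tissue with a smaller span. It was at 1383 CPM in the Control wound (2245 transcripts) and at 962 and 967 CPM in PITX1+ wounds 1 and 2 (3208 and 5249 transcripts). Control sections 1 to 3 were at 295, 225 and 133 CPM, and PITX1+ sections 1 to 4 at 273, 181, 244 and 73.0 CPM. Control and PITX1+ skin overlapped for *Tnf*, and both lay far below the wounds.

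Ordered by group mean, *Spp1* ran from the wounds (6544 CPM in the Control wound, 6689 ± 4134 CPM in the PITX1+ wounds, SD, n = 2) to PITX1+ skin (214 ± 102, n = 4), buccal mucosa (137 ± 244, n = 7) and Control skin (117 ± 81.5, n = 3). For *Tnf* the order was Control wound, PITX1+ wounds (964 ± 3.56, n = 2), Control skin (217 ± 81.4, n = 3), PITX1+ skin (192 ± 88.4, n = 4) and buccal mucosa (92.7 ± 107, n = 7). Without buccal section 3 the buccal *Spp1* mean was 44.5 ± 20.4 CPM (n = 6), below Control skin, and the buccal median of 54.2 CPM was also below the Control median of 116 CPM. Without buccal section 6 the buccal *Tnf* mean was 53.0 ± 20.5 CPM (n = 6). Without Control section 1 the Control means were 76.1 CPM for *Spp1* and 179 CPM for *Tnf*, and the order of Control and PITX1+ skin in *Tnf* turned, as it did without PITX1+ section 4 (232 CPM in PITX1+ skin). The ranges of the 3 unwounded groups overlapped in both orders, and the Control wound lay between the 2 PITX1+ wounds for *Spp1*.

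**Figure D1:**
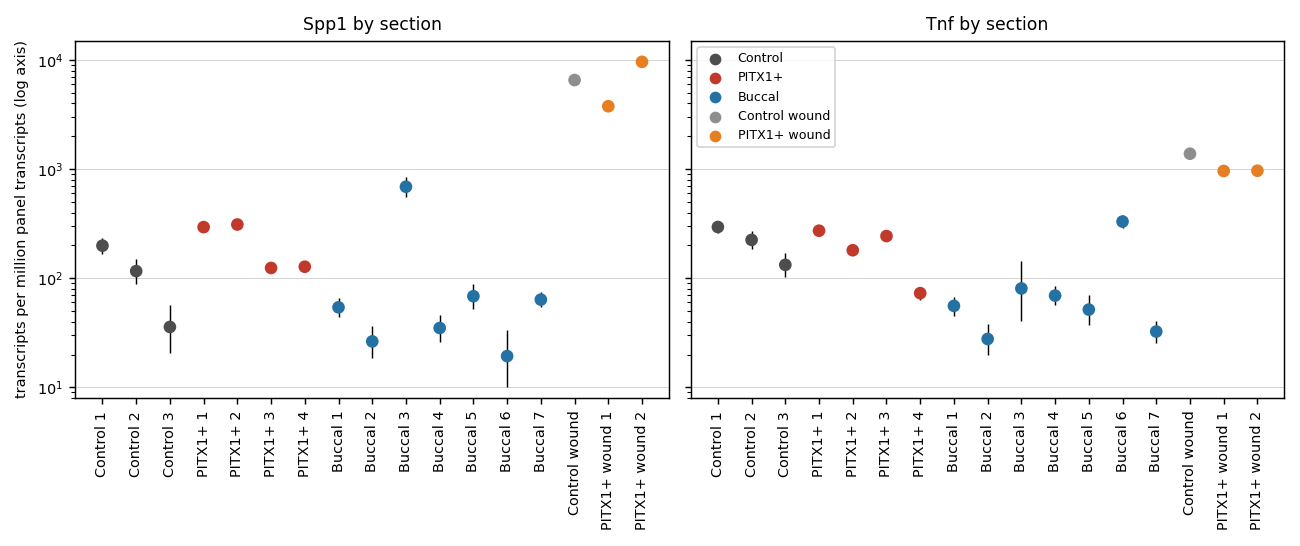
Level of *Spp1* and *Tnf* in each of the 17 sections, in CPM on a log axis, with points for sections and bars for the 95% exact Poisson interval of each count. The 3 wounds stand apart from the 14 unwounded sections for both genes, and buccal sections 3 (*Spp1*) and 6 (*Tnf*) stand above the other buccal sections.

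The first comparison asked what wounding did, with the 3 day 4 wounds set against the 3 unwounded male sections and the condition kept as a term. *Spp1* was 6.27 higher on the log2 scale (SE 0.61, edgeR quasi-likelihood test with Benjamini-Hochberg adjustment, adjusted p = 0.000812). *Tnf* was 2.86 higher (SE 0.55, edgeR adjusted p = 0.00874). With wound cells beyond 1000 µm from the eschar alone, an alternative added after the data had been seen, *Tnf* was 1.39 higher and did not pass (edgeR adjusted p = 0.199), while *Spp1* was 5.07 higher and passed (edgeR adjusted p = 0.00455). Of the 328 genes tested, 106 passed (32.3%; 22.9% higher and 9.45% lower), and *Spp1* had the 4th smallest p and *Tnf* the 38th. Wounded and unwounded skin lie on different slides, so the wound and the slide cannot be told apart, and in a bulk sum more cells that carry a gene and more RNA per cell cannot be told apart either. The change in wounding between PITX1+ and Control skin, tested as an interaction, was −1.22 for *Spp1* (edgeR adjusted p = 0.550) and −0.52 for *Tnf* (edgeR adjusted p = 0.867). Its Control side is 1 wound against 1 male section, which the fit assumes to vary like the PITX1+ sections, so these p-values show neither a difference nor its absence.

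In the immune-like cells of the wounds both genes rose, and the make-up of this class differed too. Neutrophil-like cells were 3245 of 7076 immune-like cells in the Control wound and 19855 of 46448 in the PITX1+ wounds. Over all unwounded sections they were 5 of 3664 in Control and 421 of 26531 in PITX1+ skin. The part of this shift in the rise was not tested. In immune-like cells (macrophage-like and neutrophil-like clusters together, since no other immune cluster was named at this level) *Spp1* was 5.98 higher (SE 0.57, edgeR adjusted p = 0.000307) and *Tnf* 3.73 higher (SE 0.36, edgeR adjusted p = 0.000331), among 152 of 323 genes that passed (47.1%; 25.4% higher and 21.7% lower). In macrophage-like cells alone the differences were 5.89 for *Spp1* (SE 0.54, edgeR adjusted p = 9.94e-05) and 1.66 for *Tnf* (SE 0.46, edgeR adjusted p = 0.0241), among 116 of 308 genes (37.7%; 20.5% higher and 17.2% lower). The *Tnf* call in macrophage-like cells was lost without PITX1+ section 3 or 4, or PITX1+ wound 2 (edgeR adjusted p up to 0.108, log2 differences 1.18 to 1.99). This call was also lost with transcripts over the nucleus alone. In a second clustering of the immune-like cells the macrophage-like cells of wounds and of unwounded skin were divided differently among clusters, so the kind compared does not hold the same cells on both sides. The cluster led by *F10*, *Il7r* and *Itgax* had 4053 cells in wounds, 338 in PITX1+ and 6 in Control skin, and that led by *Mrc1*, *C1qa* and *Mgl2* with *Igf1* had 196, 3283 and 256.

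Keratinocyte-like cells of the wounds had *Spp1* 3.28 higher (SE 0.62, edgeR adjusted p = 0.0474), among 16 of 327 genes that passed (4.89%; 4.59% higher and 0.306% lower). This call was lost without PITX1+ section 3 or 4, or without either PITX1+ wound (edgeR adjusted p up to 0.132, log2 differences 2.89 to 3.96). It was also lost with library size, transcripts of any quality, the nucleus only, at least 20 transcripts a cell, 60 clusters and no condition term (edgeR adjusted p = 0.0533 to 0.1002, log2 differences 2.50 to 3.75). *Tnf* in keratinocyte-like cells was 0.91 higher (SE 0.67) and did not pass (edgeR adjusted p = 0.400).

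Neutrophil-like cells carried the largest *Tnf* share of each wound, and *Spp1* was divided between neutrophil-like and macrophage-like cells. In the Control wound neutrophil-like cells were at 48529.7 CPM for *Spp1* and held 43.9% of its *Spp1* transcripts. In the PITX1+ wounds they were at 21051 and 25685 CPM and held 32.0% of *Spp1* over both. For *Tnf* they were at 12739 CPM in the Control wound (54.5% of its *Tnf*) and between 4130 and 6729 CPM in the PITX1+ wounds (48.4%).

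Macrophage-like cells held 14.9% of the *Spp1* of the Control wound and 28.6% and 44.2% of that of PITX1+ wounds 1 and 2. Neutrophil-like cells held 43.9%, 38.2% and 30.5%, so they held more than macrophage-like cells in the Control wound and PITX1+ wound 1, and less in PITX1+ wound 2. The macrophage-like level was 5579 CPM in the Control wound and 6184 to 17991 CPM in the PITX1+ wounds (5564 and 6255 to 23859.5 CPM without the cluster of mixed markers), so 1 of the 2 PITX1+ wounds lay close to the Control wound. Their *Tnf* was at 374 CPM in the Control wound and 254 to 563 CPM in the PITX1+ wounds, on both sides of the Control value.

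Stromal and epithelial kinds had *Spp1* well below the neutrophil-like cells. Fibroblast-like cells were at 1689 CPM in the Control wound and at 2477 to 5870 CPM in the PITX1+ wounds, and vascular-like cells at 1028 CPM and at 581 to 2067 CPM. Keratinocyte-like cells were at 151 CPM in the Control wound and 479 to 651 CPM in the PITX1+ wounds. For *Tnf* keratinocyte-like cells were at 185 CPM and 503 to 533 CPM, which made 5.8% of the *Tnf* of the Control wound and 20.6% of that of the PITX1+ wounds. With 1 Control wound the differences between the conditions within kinds have no replicate check.

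Cells under 10 transcripts, which carry no kind, made up 47.2% of the cells of the Control wound. They were at 60882 CPM for *Spp1* and 12900 CPM for *Tnf* there, and held 23.8% of the transcripts of each gene. In the PITX1+ wounds they were 24.7% of cells and held 5.2% of *Spp1* and 9.8% of *Tnf*.

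**Figure D2:**
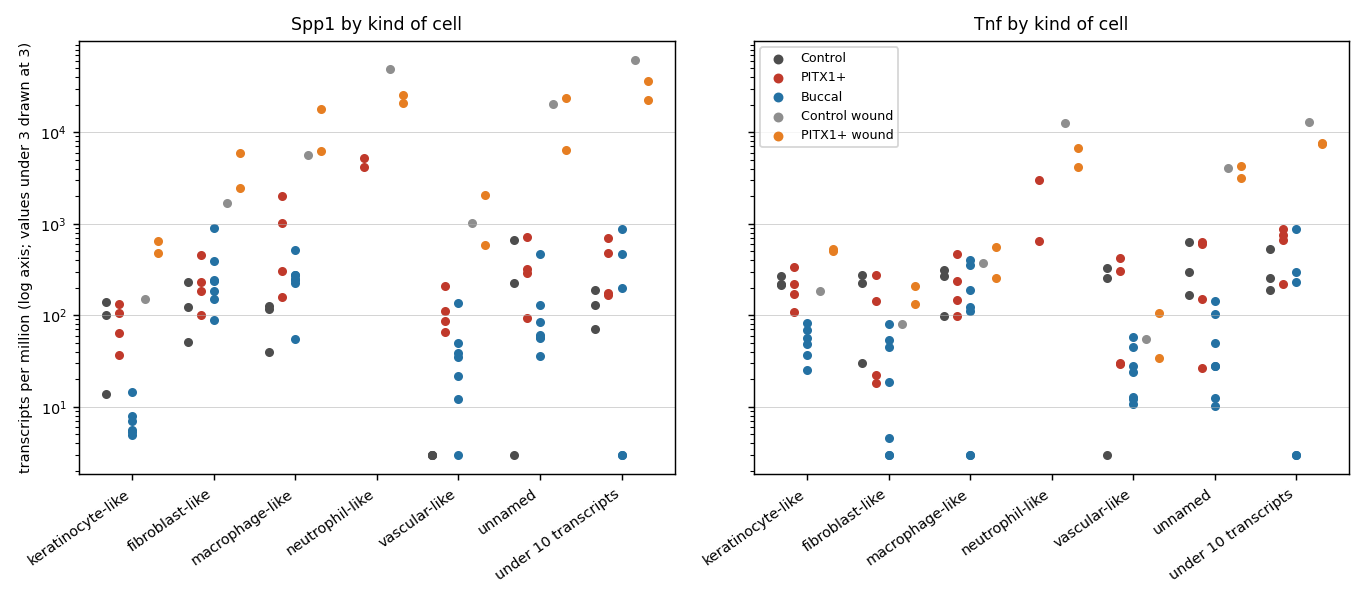
Level of *Spp1* and *Tnf* by cell kind, in CPM of that kind on a log axis, with 1 point per section for kinds with at least 2000 transcripts in a section. Values under 3 are drawn at 3. Among the named kinds, neutrophil-like cells of the wounds hold the upper end for both genes, and cells under 10 transcripts lie above them in each wound. The wounds lie above unwounded skin for *Spp1* in macrophage-like cells.

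Single cells differed widely in *Spp1*. The highest count in a cell was 30 in the Control wound and 33 and 48 in PITX1+ wounds 1 and 2. Cells with at least 10 *Spp1* transcripts numbered 64, 108 and 843 and held 7.8%, 11.5% and 24.4% of the *Spp1* of their wound. In PITX1+ wound 2 macrophage-like cells were 623 of these 843 cells. The highest *Tnf* count in a cell was 15, 9 and 8, and 3, 0 and 0 cells reached 10.

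A second clustering of the immune-like cells, added after the data had been seen and given as a description, divided them into 25 clusters. Over the 3 wounds together the macrophage-like cluster highest in *Spp1* was led by *F10*, *Il7r* and *Itgax*. Its 4053 wound cells made up 7.6% of the immune-like cells of the wounds and held 30.3% of their *Spp1* (46009.5 CPM) and 5.8% of their *Tnf* (1038 CPM). A smaller cluster led by *Il7r*, *Ctss* and *Itgax* was at 35325 CPM for *Spp1* in 845 cells. These pooled levels rest mostly on the PITX1+ wounds, which held 3761 of the 4053 cells. The first cluster was at 47795 CPM there and at 20253 CPM in the Control wound, where the smaller cluster was at 21823 CPM. *Itgax* encodes the integrin CD11c, *Ctss* a lysosomal protease and *F10* coagulation factor X.

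Clusters with the genes of resident tissue macrophages were among the lowest. The clusters led by *Ccl8*, *Cd209f* and *Mrc1*, which encode a chemokine, a lectin and the mannose receptor, were at 1581 and 1720 CPM for *Spp1* and at 126 and 119 CPM for *Tnf*, in 2526 and 3098 wound cells. Their *Spp1* rests on 313 and 361 transcripts.

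Among neutrophil-like clusters, summed over the 3 wounds and in CPM, the 2 clusters highest in *Spp1* were also the 2 highest in *Tnf*. Of the clusters led by *Hdc*, which makes histamine, and *Trem1*, a receptor that amplifies inflammation, the one with 3052 cells was at 51005 CPM for *Spp1* and 16751 CPM for *Tnf* and held 18.8% of the *Tnf* of the immune-like cells of the wounds. The other, with 3426 cells, was at 22545 and 7041 CPM. A cluster led by *Ccr1*, *Hdc* and *Trem1* was at 40342 and 10553 CPM in 3055 cells. These sums mix wounds that differ in level. *Spp1* in the Control wound and the PITX1+ wounds was at 69036 and 45875 CPM in the first of these clusters, 43211 and 18934 CPM in the second and 51574 and 36118 CPM in the third. The cluster led by the chemokine receptor *Cxcr2* and the protease *Mmp9* was at 9645 CPM for *Spp1* and 1051 CPM for *Tnf* in 3645 cells, and a cluster led by *Mmp9* and then *Cxcr2* was at 23084 and 4103 CPM in 2452 cells. Per 100 cells, *Spp1* was highest in the cluster led by *Ccr1*, *Hdc* and *Trem1* (147) and in one led by *F10*, *S100a8* and *Mmp9* (131). In the Control wound alone a cluster led by *S100a8*, *F10* and *Ccr1* was second in *Spp1*, at 61495 CPM.

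**Figure D3:**
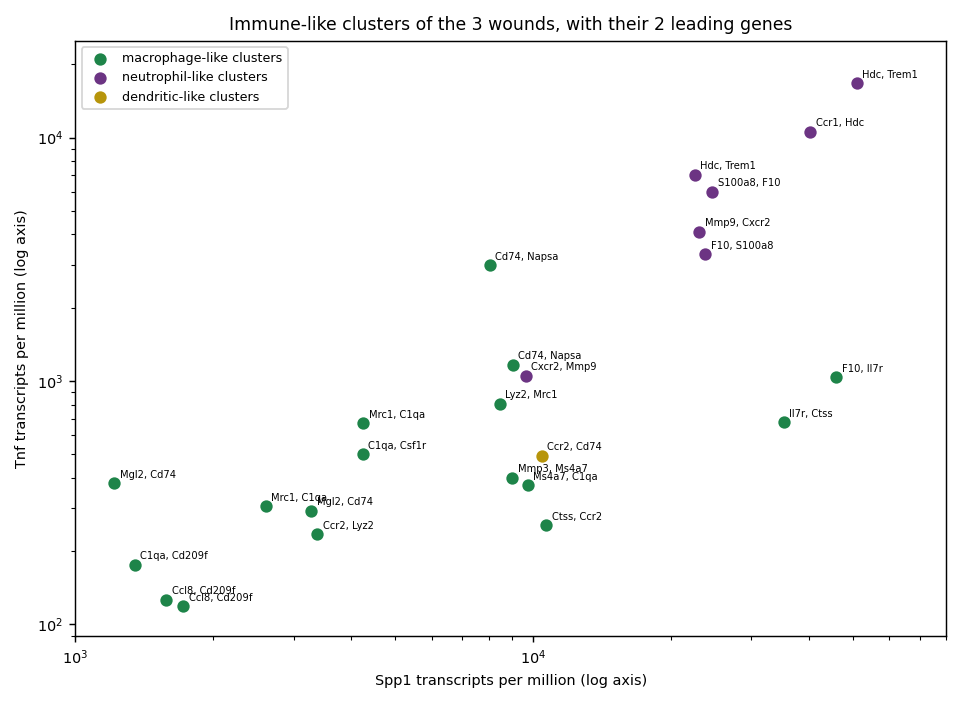
Level of *Tnf* against level of *Spp1* in the second-level clusters of immune-like wound cells, summed over the 3 wounds, with both axes logarithmic and in CPM. Each point is a cluster with at least 100 wound cells, named by its 2 leading genes. Neutrophil-like clusters run to high values of both genes, while the macrophage-like clusters led by *F10* and *Il7r* reach high *Spp1* at moderate *Tnf*.

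Both genes changed with the place in the wound. The eschar, the crust over the wound, was drawn from patches where most neighbouring cells had under 10 transcripts, and the remaining cells were binned by distance from it. From the eschar through the bands 0–100, 100–250, 250–500 and 500–1000 µm to beyond 1000 µm, *Spp1* in the Control wound was at 61599, 34445, 3155, 2314, 2461 and 1128 CPM. In PITX1+ wound 1 the same places were at 31858, 19860, 4570, 4095, 2720 and 1294 CPM. In PITX1+ wound 2 they were at 60706, 36507, 17422, 7014, 7280 and 5948 CPM.

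In CPM the eschar was highest in each wound, the first 100 µm came next and the farthest band was lowest. By this measure the eschar exceeded the farthest band 54.6-fold in the Control wound and 24.6-fold and 10.2-fold in PITX1+ wounds 1 and 2. Per 100 cells the order differed. The eschar of the same wounds held 28.6, 12.6 and 38.9 *Spp1* transcripts per 100 cells, against 129, 82.7 and 150 within 100 µm. In PITX1+ wound 2 the eschar was then the lowest place, below 46.8 beyond 1000 µm. PITX1+ wound 2 kept a level beyond 1000 µm that was above that of the other wounds, and 39.7% of its *Spp1* lay there, against 8.7% in the Control wound and 20.1% in PITX1+ wound 1. That band held 64.1% of all transcripts of PITX1+ wound 2, 50.5% of those of the Control wound and 58.6% of those of PITX1+ wound 1.

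*Tnf* in CPM was also highest in the eschar and next within 100 µm of it. Per 100 cells *Tnf* was at 6.49, 4.51 and 7.81 in the eschar of the 3 wounds, against 32.4, 26.3 and 15.4 within 100 µm. In the Control wound it went from 13970.3 CPM in the eschar and 8625 CPM within 100 µm to 122 CPM beyond 1000 µm. In PITX1+ wound 1 the 3 places were at 11363, 6321 and 457 CPM, and in PITX1+ wound 2 at 12179.7, 3747 and 626 CPM. At 100–250 µm *Tnf* was at 742, 511 and 910.2 CPM in the Control wound and PITX1+ wounds 1 and 2. The lowest *Tnf* of the PITX1+ wounds was not in the farthest band but between 250 and 1000 µm, at 144 CPM for wound 1 (500–1000 µm) and 305 CPM for wound 2 (250–500 µm).

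**Figure D4:**
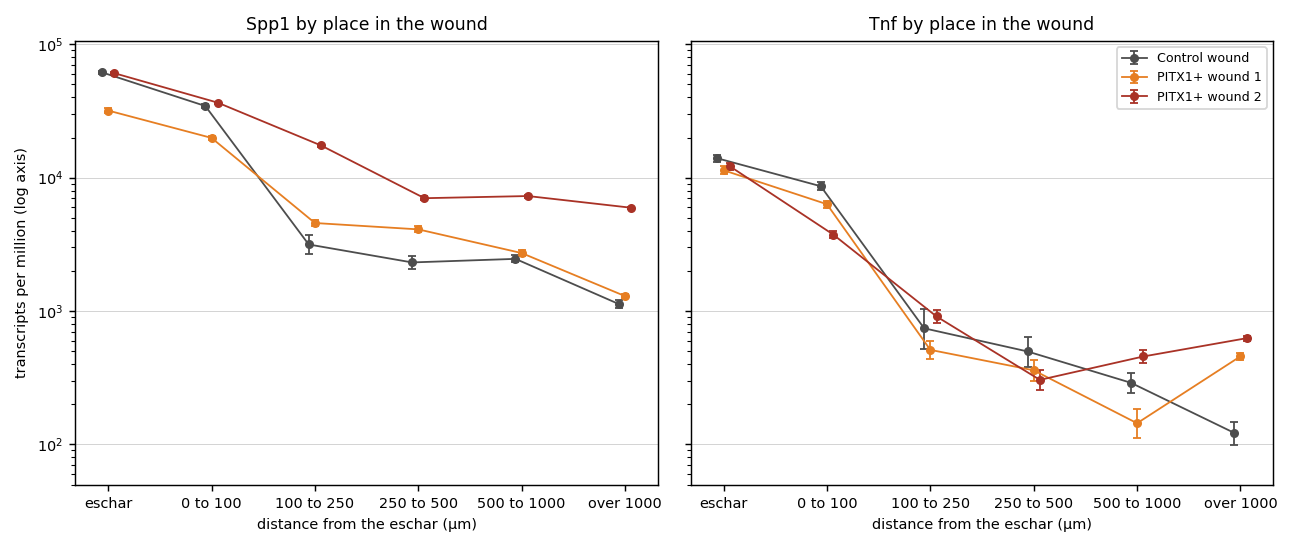
Level of *Spp1* and *Tnf* in the eschar and in bands of distance from it in the 3 wounds, in CPM on a log axis, with bars for the 95% exact Poisson interval. In CPM both genes are highest in the eschar and within 100 µm of it, and the PITX1+ wounds lie above the Control wound beyond 1000 µm.

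The paper left the eschar out of its Xenium analysis as mostly dead or dying cells. By its definition here the eschar was poor in RNA. It held 51.0%, 29.7% and 16.4% of the cells but 5.1%, 2.0% and 1.6% of the transcripts of the Control wound and PITX1+ wounds 1 and 2, at 4.6, 4.0 and 6.4 transcripts per cell. Neutrophil-like cells were 63.5% to 71.5% of its cells with at least 10 transcripts and 53.2% to 70.7% within 100 µm, against 0.7%, 8.5% and 11.2% beyond 1000 µm. Transcripts of negative control probes were at 415, 607 and 330 CPM in the eschar against 331, 618 and 531 CPM beyond 1000 µm. Negative control codewords were at 195, 75.9 and 227 CPM in the eschar against 122, 77.2 and 54.5 CPM beyond 1000 µm.

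Within macrophage-like, neutrophil-like and fibroblast-like cells *Spp1* was also higher near the eschar than beyond 1000 µm. *Spp1* of neutrophil-like cells in the eschar was at 68147, 41758 and 64067 CPM in the Control wound and PITX1+ wounds 1 and 2, against 13666, 8413 and 14226 CPM beyond 1000 µm. The lowest neutrophil-like level was in a middle band in the Control wound (8856 CPM at 250–500 µm, 23 transcripts) and PITX1+ wound 2 (10538 CPM at 500–1000 µm). Macrophage-like cells within 100 µm of the eschar were at 28838, 19542 and 48035 CPM, against 2897, 2353 and 13255 CPM beyond 1000 µm. Fibroblast-like cells went from 11887, 15471 and 13780 CPM to 1165, 1349 and 5314 CPM between the same places.

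*Tnf* of neutrophil-like cells was at 17618, 15862 and 15552 CPM in the eschar and at 4823, 1935 and 2808 CPM beyond 1000 µm. The farthest band was not the lowest in the Control wound or PITX1+ wound 1, with 2263 and 599 CPM at 500–1000 µm (32 and 7 transcripts). In keratinocyte-like cells beyond 1000 µm *Tnf* was at 164 CPM in the Control wound and at 573 and 591 CPM in the PITX1+ wounds. *Spp1* in the cluster led by *F10*, *Il7r* and *Itgax* was at 29843, 29673 and 62782 CPM in the eschar or within 100 µm in the Control wound and PITX1+ wounds 1 and 2, and at 5914 (12 transcripts), 16937 and 42555 CPM beyond 1000 µm.

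The ends of a section differed beyond 1000 µm. In PITX1+ wound 2 *Spp1* was at 339.903 CPM on the side of low y and at 6200.15 CPM on the other side, which held 42597 of these cells against 1703. In PITX1+ wound 1 the sides were at 1499 and 177 CPM, and in the Control wound at 1233 and 974 CPM. *Tnf* was high on the same sides, at 650 against 73.3 CPM in PITX1+ wound 2 and at 510 against 171 CPM in PITX1+ wound 1. Neutrophil-like cells were 11.7% of the kept cells on the high side of PITX1+ wound 2 and 0.2% on its low side, and 10.4% and 0.5% in PITX1+ wound 1. Their part in the difference between sides was not tested.

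**Figure D5:**
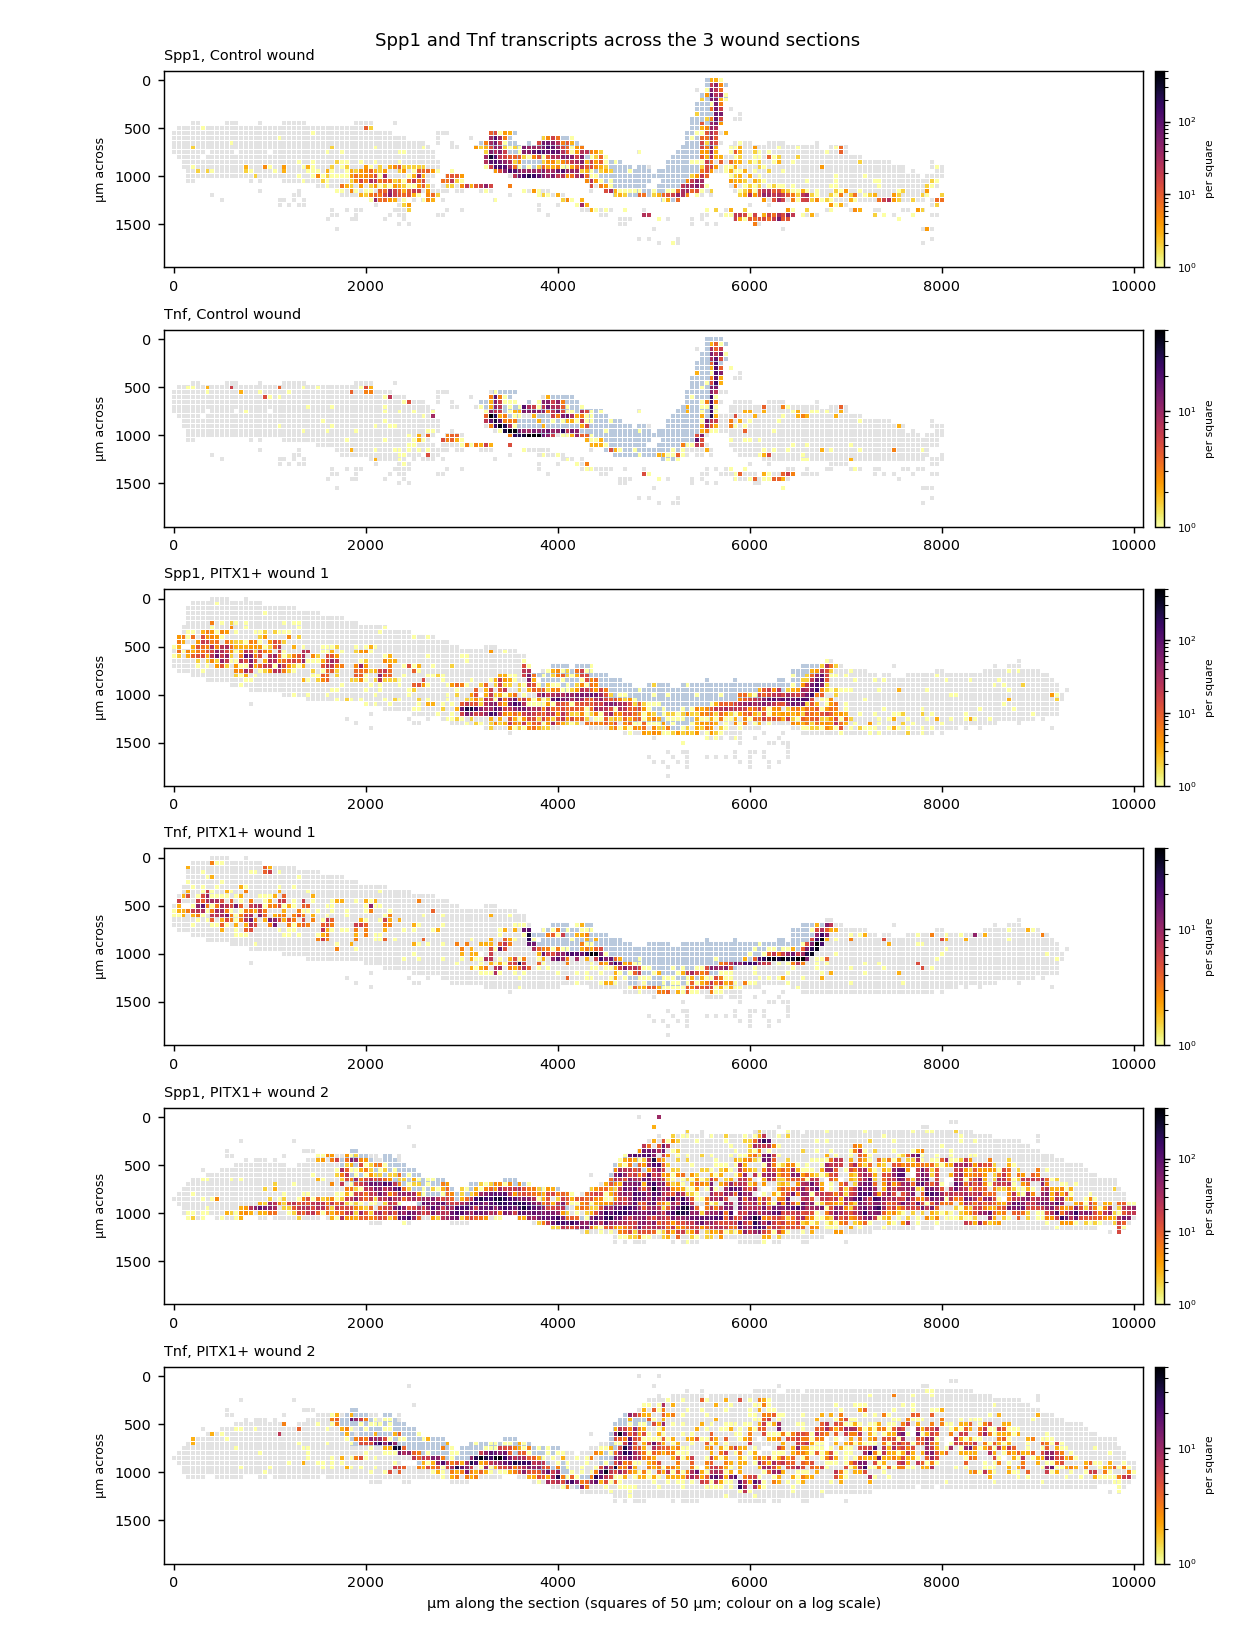
Maps of *Spp1* and *Tnf* in the Control wound and the 2 PITX1+ wounds, drawn to a common scale in µm with transcripts per square of 50 µm in colour on a log scale. Grey squares hold cells without the gene, and blue-grey marks the eschar. Both genes are dense along the eschar, and the PITX1+ wounds carry a further zone far from it, mainly on 1 side.

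Distance from the epidermis or a hair follicle was read in cells more than 250 µm from the eschar that were not keratinocyte-like. It was taken to the nearest keratinocyte-like cell whose neighbours were mostly keratinocyte-like. *Spp1* in the Control wound rose from 651 CPM within 25 µm of keratinocyte-like cells to 4463 CPM at 100–200 µm, was at 3692 CPM at 200–400 µm and highest beyond 400 µm, at 14379.6 CPM on 269 transcripts. In PITX1+ wound 1 it was at 3894 CPM within 25 µm and 3549.92 CPM at 100–200 µm, and also highest beyond 400 µm, at 6502 CPM on 25 transcripts. In PITX1+ wound 2 *Spp1* was at 8339 CPM within 25 µm and peaked at 12214 CPM at 25–100 µm and was at 3083 CPM beyond 400 µm on 35 transcripts. The cells within 25 µm were thus the lowest in the Control wound and not in the PITX1+ wounds. These cells can lie along follicles as well as under the epidermis, so the places compared may differ between the wounds. *Tnf* within 25 µm was at 115 CPM in the Control wound and at 501 and 738 CPM in the PITX1+ wounds.

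The second comparison asked whether PITX1 changed the genes in a wound, and rests on 1 Control wound against 2 PITX1+ wounds, with no test. Over all cells the mean of the PITX1+ wounds over the Control wound was 1.02 for *Spp1*, with 0.58 and 1.47 for the individual wounds. For *Tnf* it was 0.70, with 0.70 for both. The ratios differed with the part of the section that was counted. Without the eschar they were 0.89 and 2.43 for *Spp1* and 1.05 and 1.10 for *Tnf*. Beyond 1000 µm they were 1.15 and 5.27 for *Spp1* and 3.75 and 5.13 for *Tnf*. There 1 side of each PITX1+ wound was high, and on the other side *Spp1*, at 177 and 339.903 CPM, was below both sides of the Control wound. The ratios beyond 1000 µm were added after the data had been seen. Both genes were above the Control wound in both PITX1+ wounds beyond 1000 µm, within 25 µm and at 25–100 µm of keratinocyte-like cells, and in the keratinocyte-like and fibroblast-like cells of the whole section. Both were below it in both PITX1+ wounds in neutrophil-like cells of the whole section. The *Spp1* order in these cells changed with place. In the eschar they were at 68147 CPM in the Control wound and 41758 and 64067 CPM in PITX1+ wounds 1 and 2. At 250–500 µm they were at 8856 CPM in the Control wound (23 transcripts) and 12478 CPM in PITX1+ wound 1. In CPM *Tnf* was also below the Control wound in the eschar and within 100 µm of it, and *Spp1* in the eschar. Per 100 cells eschar *Tnf* was at 6.49 in the Control wound and 4.51 and 7.81 in the PITX1+ wounds.

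The third comparison asked what PITX1 did in intact skin, with the 4 PITX1+ against the 3 Control sections and the slide as a term. Over all cells *Spp1* was higher in PITX1+ skin by 1.17 on the log2 scale (SE 0.33, edgeR adjusted p = 0.0397), among 67 of 328 genes that passed (20.4%; 10.4% higher and 10.1% lower). Without any 1 of Control sections 1, 2 and 3 and PITX1+ sections 1, 2 and 3 the call was lost (edgeR adjusted p up to 0.124, log2 differences 0.98 to 1.39), and it was kept only without PITX1+ section 4. *Tnf* was at −0.06 (SE 0.45, edgeR adjusted p = 0.921). *Pitx1* itself was 1.27 higher and did not pass (edgeR adjusted p = 0.407), with no rise on the female slide.

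Where in the cell the transcripts lay differed between the slides and, on the female slide, between the sections assigned to the groups. Of *Spp1* transcripts, 81.9% and 77.6% lay over a nucleus in Control sections 1 and 2, against 51.8% and 36.8% in PITX1+ sections 1 and 2. On the male slide the share was 35.3% in Control section 3 and 46.9% and 44.4% in PITX1+ sections 3 and 4, in the other direction. Over the nucleus alone the *Spp1* difference was 0.56 and did not pass (edgeR adjusted p = 0.343). *Tnf* lay over a nucleus for 84.3% to 92.3% of its transcripts in the 4 female sections, where all genes together were at 38.8% to 43.7%. In the 3 male sections the *Tnf* share was 58.6% to 71.3%, and in the wounds 64.3% to 64.8%. The part of this pattern in the unwounded levels was not tested.

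Macrophage-like cells held 44.4% of the *Spp1* of PITX1+ skin, with 29.9%, 66.6%, 14.2% and 8.2% in PITX1+ sections 1 to 4, and 22.1% without PITX1+ section 2. They were at 1009 CPM (302 transcripts), 2006 CPM (1156 transcripts), 304 CPM (50 transcripts) and 158 CPM (30 transcripts) in PITX1+ sections 1 to 4. In Control sections 1 to 3 they were at 116, 125 and 39.8 CPM, on 6, 2 and 2 transcripts. All 4 PITX1+ sections lay above the 3 Control sections, the female ones by the most.

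The difference was 3.45 on the log2 scale (SE 0.62, edgeR adjusted p = 0.0539) and missed the threshold. No gene of the 325 tested passed in macrophage-like cells (0%), 60 had an unadjusted p under 0.05 and DESeq2 called 20, and *Spp1* had the smallest p of all. In immune-like cells together the difference was 3.34 (SE 0.63, edgeR adjusted p = 0.0575), again with 0 of 326 genes past the threshold (0%), 54 with an unadjusted p under 0.05, 22 by DESeq2 and *Spp1* first by p. With DESeq2 *Spp1* passed in both (adjusted p = 0.000387 and 0.000599). Without any 1 of the PITX1+ sections, or without Control section 3, *Spp1* in macrophage-like cells passed by edgeR, with the smallest adjusted p 0.000535. Left out in turn, the other Control sections gave edgeR adjusted p up to 0.228, short of the threshold. Over all 7 omissions the log2 difference was between 2.67 and 3.84. *Tnf* in macrophage-like cells was at 0.23 (SE 0.42, edgeR adjusted p = 0.845).

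Most of this *Spp1* came from few clusters of the second clustering, summed here over the 4 PITX1+ sections. PITX1+ section 2 alone held 1156 of the 1590 *Spp1* transcripts of immune-like cells. The cluster led by *Il7r*, *Ctss* and *Itgax* had 2764 cells in PITX1+ skin, 10.4% of its immune-like cells, with 741 *Spp1* transcripts, 46.6% of those of immune-like cells (4093 CPM). The cluster led by *Ctss*, *Ccr2* and *C3ar1* had 1975 cells and 323 *Spp1* transcripts (2434 CPM). In Control skin these clusters had 24 and 80 cells and 0 *Spp1* transcripts. The Control macrophage-like cells lay mostly in other clusters, the largest of them led by *Mgl2*, *Cd74* and *Napsa* and by *C1qa*, *Cd209f* and *Mrc1*, with 487 cells each. In PITX1+ skin the latter cluster was at 154 CPM for *Spp1* and the clusters led by *Ccl8* and *Cd209f* at 41.4 and 38.8 CPM.

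Other kinds of unwounded skin contributed in part. Fibroblast-like cells were at 453, 234, 100.1 and 182 CPM for *Spp1* in PITX1+ sections 1 to 4 and at 232, 122 and 50.5 CPM in Control sections 1 to 3. Neutrophil-like cells were few, at 183, 56, 150 and 32 cells in PITX1+ sections 1 to 4 and 5 cells over all Control sections, and held 13, 0, 30 and 9 *Spp1* transcripts. In PITX1+ section 4, 100 salivary-like cells, led by the simple-epithelial keratins *Krt18* and *Krt8*, held 48 transcripts or 13.2% of its *Spp1*.

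In keratinocyte-like cells, which include those that drive the transgene, neither gene passed the test. *Spp1* in them was at 133, 63.7, 106 and 37.2 CPM in PITX1+ sections 1 to 4 and at 138, 99.99 and 13.7 CPM in Control sections 1 to 3, with a difference of 0.45 (SE 0.62, edgeR adjusted p = 0.577). *Tnf* was at 220, 170.0, 341 and 108 CPM against 268, 215 and 219 CPM, with a difference of −0.13 (SE 0.45, edgeR adjusted p = 0.818). In the same cells 96 of 328 genes passed (29.3%; 13.4% higher and 15.9% lower). Keratinocyte-like cells were 41.0% of the cells of PITX1+ skin and held 64.0% of its *Tnf* (53.3% to 90.6% by section), and in Control skin they were 28.5% of cells and held 47.7% (45.7% to 50.8%). Pooled over sections, these cells were at 209 CPM for *Tnf* in PITX1+ skin and 241 CPM in Control skin. The section means over all cells were 192 and 217 CPM, so their *Tnf* level was close to that of all cells.

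The effect of PITX1 was also fitted on each slide alone, as alternatives added later. In macrophage-like cells *Spp1* was 3.77 higher on the female slide (edgeR adjusted p = 3.37e-07), where *Pitx1* was not higher in the PITX1+ sections, and 2.23 higher on the male slide (edgeR adjusted p = 0.703). The male slide holds 1 Control section, which the fits assume to vary like the others, so its p-values and those of the differences between slides say little. The female fits set PITX1+ sections 1 and 2 against Control sections 1 and 2, which held only 6 and 2 *Spp1* transcripts in macrophage-like cells. These Control sections are not stated to be separate mice, so the small p-value on the female slide need not reflect a spread between animals. The female minus male difference in these cells was 1.35 and did not pass (edgeR adjusted p = 0.752). Over all cells the difference was 0.98 on the female slide (edgeR adjusted p = 0.0555) and 1.74 on the male slide (edgeR adjusted p = 0.293). Over all cells the difference between the slides was −0.56 and did not pass (edgeR adjusted p = 0.656), and sex and slide cannot be told apart.

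The fourth comparison set buccal mucosa, which carries *Pitx1* of its own, against Control skin. *Pitx1* was 4.46 higher there (edgeR adjusted p = 0.00971), among 125 of 328 genes that passed (38.1%). *Spp1* ran from 19.4 to 689 CPM over the 7 buccal sections with a median of 54.2 CPM, and differed by 0.30 (SE 0.91, edgeR adjusted p = 0.812). *Tnf* ran from 27.8 to 331 CPM with a median of 55.8 CPM, and differed by −0.56 (SE 0.78, edgeR adjusted p = 0.598). Each gene had 1 high section, buccal section 3 for *Spp1* and 6 for *Tnf*. Without buccal section 3 or without Control section 3 the *Spp1* difference was negative (down to −0.72), and without buccal section 6 *Tnf* was 1.54 lower and passed (edgeR adjusted p = 0.0157). Mucosa and skin lie on different slides, so tissue and slide cannot be told apart.

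The cell kinds of the mucosa differed in which gene they carried. Buccal keratinocyte-like cells held 35 *Spp1* transcripts over 6 sections, at 5.0 to 14.4 CPM. The filter on low counts removed *Spp1* there, and without that filter *Spp1* was 2.14 lower than in Control skin (edgeR adjusted p = 0.00332). With transcripts of any quality score *Spp1* in these cells was only 0.96 lower (edgeR adjusted p = 0.00762). Their *Tnf* was at 25.005 to 82.7 CPM, below the 215 to 268 CPM of Control skin. With TMM scaling the difference was −0.78 (SE 0.38) and did not pass (edgeR adjusted p = 0.0884), while 225 of 325 genes passed (69.2%; 32% higher and 37.2% lower). With library size in place of TMM it was −2.13 and passed (edgeR adjusted p = 0.000548). In immune-like and in macrophage-like cells the same filter removed both genes from this comparison, where 44 of 194 genes passed (22.7%). Fibroblast-like cells held 47.7% of buccal *Spp1*, at 89.4 to 892 CPM. In buccal section 6, 2573 salivary-like cells held 188 of its 205 *Tnf* transcripts (627 CPM) and 1 *Spp1* transcript, whereas 16 to 64 such cells in other buccal sections were at 1169 to 12975 CPM for *Spp1* with 0 *Tnf* transcripts.

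The receptors of osteopontin and the genes that tumour necrosis factor induces were read from fixed lists. The lists were chosen with earlier results of these data known, so their counts are a description and not an independent check. Of 20 genes induced by tumour necrosis factor, 16 rose in the wounds over all cells and 0 fell, with a median log2 difference of 2.08 against 0.04 over all genes, where 75 of 328 rose. *Cxcl5* rose by 6.16, *Ccl4* by 6.09, *Saa3* by 6.002 and *Cxcl3* by 5.89, of which *Saa3* encodes an acute phase protein and the others chemokines. In immune-like cells 16 rose, with a median of 2.76 against −0.04 over all genes, where 82 of 323 rose. In macrophage-like cells 14 rose, with a median of 2.80 against −0.07, where 63 of 308 rose. In keratinocyte-like cells of the wounds, where 16 of 327 genes passed (4.89%), 0 of these genes passed by edgeR, with a median of 1.70 against −0.13 over all genes. Of 5 receptor genes of osteopontin, *Itga5* rose by 1.20 and *Cd44* by 1.05, with a median of 0.04 against 0.04 over all genes. Of 12 genes of repair macrophages 4 rose and 1 fell, led by *Mmp12*, an elastase, at 4.33, and *Retnla*, a marker of alternative activation, at −3.65. *Timp1*, a protease inhibitor, rose by 3.65 and *Arg1*, an arginase, by 2.72. Of the same 12 genes, 4 rose and 1 fell in immune-like cells, where 82 of 323 genes rose. In macrophage-like cells 6 rose and 1 fell, with a median of 0.58 against −0.07 over all genes, where 63 of 308 rose.

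In PITX1+ against Control skin over all cells 10.4% of all genes were higher and 10.1% lower. Of the 20 induced genes *Saa3* rose by 3.79, *Areg*, an EGF receptor ligand, rose by 2.31 and *Serpinb2*, a protease inhibitor, fell by 1.30, with a median of 0.29 against −0.05 over all genes. Of the receptors *Cd44* rose by 0.91. Of the repair genes *Tgfbi* fell by 1.42 and none rose. In buccal mucosa, where 16.5% of genes were higher and 21.6% lower over all cells, 1 induced gene was higher (*Hbegf*, another EGF receptor ligand, at 2.11) and 8 were lower, led by *Ccl3* at −4.67, with a median of −1.09. Of the 5 receptors 1 was higher there and 1 lower, and of the 12 repair genes 3 were higher and 2 lower.

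*Spp1* was more frequent near neutrophil-like cells in 6 of the 7 sections that held at least 20 of them. Kept cells of other kinds within 50 µm had 5.05, 5.73, 2.46 and 0.30 *Spp1* transcripts per 100 cells in PITX1+ sections 1 to 4, against 1.30, 2.18, 0.67 and 1.29 farther away. In the wounds they had 67.1, 34.04 and 84.2 against 7.02, 4.41 and 13.4. The mean difference was 24.1 per 100 cells (p = 0.0312 by an exact permutation of the signs over sections, two-sided, where 0.0156 is the smallest possible). For *Tnf* the mean difference was 2.17 per 100 cells, again positive in 6 of 7 sections (p = 0.0312 by the same exact test). Near cells were shallower in PITX1+ sections 1 and 2 and the Control wound, at 39.7, 45.3 and 73.7 transcripts per cell against 61.3, 74.9 and 107.8, and of similar depth or deeper in the other 4. In the wounds nearness to neutrophil-like cells also follows the distance from the eschar, and the part of that distance was not tested. Both gave 0.0625 without any 1 section other than PITX1+ section 4, and 0.0312 without that section. Among macrophage-like cells alone the *Tnf* difference was 1.02 per 100 cells (p = 0.109 by the same exact test).

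The overlap of the genes in single cells of the wounds is given as a description. Of macrophage-like cells with a *Tnf* transcript, 45.7%, 40% and 58.0% had *Spp1* in the Control wound and PITX1+ wounds 1 and 2, against 18.1%, 14.2% and 30.6% of those without *Tnf*. The cells with *Tnf* were also deeper, at a median of 79.5, 81 and 84 other transcripts against 59, 53 and 55. As a level, *Spp1* was still at 17433, 16062 and 26948 CPM against 5155, 5959 and 17544 CPM. Of neutrophil-like cells with *Tnf*, 70.1%, 56.1% and 57.0% had *Spp1* against 54.5%, 32.6% and 43.0%, at median depths of 21, 24 and 33.5 against 17, 26 and 33 other transcripts.

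The genes with the most similar pattern were found by Spearman's rho over 83 sums of a section and a cell kind, which share sections and depth, as a description. For *Spp1* these were *Itgam* (0.86), *Ccr1* (0.81), *Cd52* (0.79), *Mmp9* (0.78) and *Ccl7* (0.77). For *Tnf* they were *Ccl3* (0.79), *Trem1* (0.78), *F10* (0.76), *Mmp12* (0.76) and *Ccl4* (0.75), and *Spp1* with *Tnf* was at 0.55. *Itgam*, *Ccr1*, *Mmp9* and *Trem1* are genes of myeloid cells, and *Ccl3* and *Ccl4* encode chemokines.

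Within macrophage-like cells, those with *Spp1* differed from those without in named genes. Over 7 sections with 8603 such cells *Mmp12* was 7.75-fold higher (median, range 2.35 to 10.3), and *Il1rn*, the interleukin-1 receptor antagonist, 3.22-fold, *Sdc1* 2.90-fold, *Itgax* 2.49-fold and *F10* 2.40-fold. For *Tnf*, over 6 sections with 1133 cells, the leading genes were *Dsg1a* at 3.00-fold, *F10* at 2.16-fold, *Rrm2* at 2.13-fold, *Cebpb* at 1.90-fold and *Il7r* at 1.77-fold. *Dsg1a* encodes a keratinocyte desmoglein.

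Neutrophil-like cells with *Spp1* also had more *Mmp12*, at 3.14-fold over 4 sections with 10339 such cells, followed by *Csf3* at 2.06-fold, *Pdgfa* at 2.05-fold, *Bmp2* at 2.04-fold and *Fn1* at 1.98-fold. Those with *Tnf*, 3805 cells over the 3 wounds, had *Csf3* at 2.65-fold, *Ccl4* at 2.19-fold, *Ccl3* at 1.86-fold, *Icam1* at 1.85-fold and *Spp1* at 1.55-fold. *Csf3* encodes the growth factor G-CSF and *Icam1* an adhesion molecule. The folds compare cells of the same kind and section with a pseudocount of 10 CPM, and carry no test.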

How the data were processed

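The authors deposited, as the instrument wrote them, transcripts with gene, position, quality score and cell, and per-cell counts; how the segmentation was set is not given in the sources used here. Sums of transcripts with a score of at least 20 equalled the deposited counts in 100% of cells. Sections were chains of cells within 100 µm (200 on the wounded slide) with at least 2000 cells, ordered by x. Cells with at least 10 transcripts were clustered by k-means with scikit-learn 1.9.0 (45 clusters, 40 components, the members and listed genes kept out) and named where at least 3 markers of a kind were enriched and no other kind had more markers among the 10 leading genes. Counts were summed per section and kind and tested in 12 comparisons by the edgeR 4.0.16 quasi-likelihood test (R 4.3.3) with TMM scaling, its filter on low counts, Benjamini-Hochberg adjustment and a threshold of 0.05. DESeq2 1.42.0 was an alternative. Section levels use all cells, and tests use kept cells. Data were also simulated over all cells, with 1 common spread for all genes and no slide or condition term. In them 56.7%, 47.5% and 73.3% of 4-fold changes were found for PITX1+ skin, buccal mucosa and wounds. These rates need not hold for the fits reported. Doublets and segmentation errors were not removed. Named genes were those with the largest changes in each list, or the 5 most similar. The members and lists were chosen with earlier results of these data known.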

Additional observations from a re-analysis of the deposited data

Results flagged for a closer look

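Of 16 groups of sections examined for a value far from the rest, 3 held one, where chance gives about 1 in 20 groups. Buccal section 3 was at 689 CPM for *Spp1* on 94 transcripts, 56 of them in fibroblast-like cells, against a median of 54.2 CPM over the 7 buccal sections. Buccal section 6 was at 331 CPM for *Tnf* on 205 transcripts, 188 of them in salivary-like cells, against a median of 55.8 CPM. In keratinocyte-like cells buccal section 6 was at 14.4 CPM for *Spp1* on 3 transcripts.

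On the male unwounded slide 257 cells lay outside the sections and held 183 *Spp1* transcripts (49539.8 CPM), far above the highest Control section at 199 CPM. Of these, 182 lay in 25 cells with at least 10 transcripts. The leading genes of these cells included *Mmp12*, *Fn1* and *Lyz2*. These cells entered no comparison.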

How the results depend on the processing

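No paired analysis was possible because the labels give no replicate numbers to the sections. Over 19 log2 differences, 2 near-far differences and 2 wound ratios, 157 of 200 alternatives kept direction and side of the threshold, and the 3 *Spp1* wound differences over all, immune-like and macrophage-like cells kept theirs in every one run. The cause of the changes below was not tested. The low counts of Control skin (17 to 149 *Spp1* transcripts a section) limit the PITX1+ comparison.

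*Spp1* over all PITX1+ cells did not pass with library size in place of TMM (1.25), transcripts of any quality (0.61), the nucleus only (0.56), no slide term (0.85), the female slide (0.98) or the male slide (1.74). It passed in PITX1+ immune-like and macrophage-like cells with library size (3.29 and 3.37), DESeq2 (3.21 and 3.35), the nucleus only (2.70 and 2.76) and the female slide (3.77 and 3.77), and in macrophage-like cells also with at least 20 transcripts a cell (3.47) and 60 clusters (3.67). *Tnf* over all PITX1+ cells turned positive with library size (0.054), at least 20 transcripts (0.13) and the male slide (0.38). In PITX1+ keratinocyte-like cells *Spp1* turned negative with any quality (−0.14) and the nucleus only (−0.033), and *Tnf* positive on the female slide (0.020).

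In buccal mucosa *Tnf* passed with DESeq2 over all cells (−1.38), and in keratinocyte-like cells with library size (−2.13), DESeq2 (−0.89) and any quality (−0.84). *Spp1* over all buccal cells was −0.23 over the nucleus, and in keratinocyte-like cells it was −0.96 with any quality (edgeR adjusted p = 0.00762). Without the filter on low counts, the 5 buccal differences that it removed were −2.14 for *Spp1* in keratinocyte-like cells (edgeR adjusted p = 0.00332) and, short of the threshold, 1.33 and 1.41 for *Spp1* and −0.25 and −0.30 for *Tnf* in immune-like and macrophage-like cells.

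In wounds *Tnf* did not pass over all cells beyond 1000 µm (1.39) or over the nucleus in macrophage-like cells (1.29). *Spp1* in keratinocyte-like cells did not pass with library size (3.08), any quality (2.50), the nucleus (3.75), at least 20 transcripts (3.15), 60 clusters (2.55) or no condition term (3.19). The near-far *Tnf* difference was 1.02 for macrophage-like cells alone. The PITX1+ over Control wound ratio was 1.66 for *Spp1* and 1.08 for *Tnf* without the eschar and 3.21 and 4.44 beyond 1000 µm. For *Tnf* it was 0.72 with any quality, 0.64 over the nucleus and 0.93 per cell.

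Leaving out 1 section in turn gave, for PITX1+ against Control, *Spp1* 0.98 to 1.39 over all, 2.65 to 3.83 in immune-like, 2.67 to 3.84 in macrophage-like and 0.026 to 0.93 in keratinocyte-like cells, and *Tnf* −0.38 to 0.20, 0.29 to 0.55, 0.10 to 0.35 and −0.42 to 0.087. *Spp1* in immune-like cells passed without Control section 3 or PITX1+ section 2, 3 or 4. *Tnf* over all cells was positive without Control section 1 or 2 or PITX1+ section 2 or 4, and in keratinocyte-like cells without PITX1+ section 4. In buccal mucosa *Spp1* was −0.72 to 0.89 and *Tnf* −1.54 to −0.33 over all cells, and *Tnf* −1.03 to −0.64 in keratinocyte-like cells, where it passed without buccal section 4. In wounds *Spp1* was 5.81 to 6.68, 5.55 to 6.64, 5.17 to 6.42 and 2.89 to 3.96, and *Tnf* 2.42 to 3.45, 3.44 to 3.96, 1.18 to 1.99 and 0.35 to 1.58. Near-far differences were 16.3 to 28.3 for *Spp1* and 1.49 to 2.56 for *Tnf*.

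Counts of genes that passed moved by over 1.5 times for PITX1+ skin over all cells from 67 to 8 (no slide term), 0 (male slide) and 13 to 85 (1 section left out), and for wounds from 106 to 47 (beyond 1000 µm) and 53 to 129. Over all buccal cells they went from 125 to between 74 and 178. In PITX1+ immune-like cells they went from 0 to 8 (library size), 22 (DESeq2), 12 (nucleus), 1 (20 transcripts), 41 (female slide), 2 (male slide) and 0 to 34. In PITX1+ macrophage-like cells they went from 0 to 11, 20, 11, 2, 4 (60 clusters), 38 (female slide) and 0 to 34. In keratinocyte-like cells they went from 96 to 160 (DESeq2), 32 (no slide term) and 36 to 111 for PITX1+ skin, and from 16 to 6 (library size), 74 (DESeq2), 6 (nucleus), 7 (20 transcripts), 6 (60 clusters), 5 (no condition term) and 5 to 57 for wounds. For wounds the 1-section ranges were 76 to 145 in immune-like and 66 to 111 in macrophage-like cells.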
